A study of Homo sapiens with 9 samples.

Results

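The matrix metalloproteases (MMPs), the ADAMTS proteases and their tissue inhibitors (TIMPs) were followed in human cranial neural crest cells (CNCCs) from which SOX9 protein was removed. Members were taken by gene symbol alone: every symbol made of MMP and a number, every symbol made of ADAMTS and a number, and TIMP1 to TIMP4. This gave 45 of the 18970 symbols in the count tables, made up of 22 MMPs, 19 ADAMTS genes and 4 TIMPs. Single genes are reported where T>C reads, the reads of newly made RNA, reached 1 CPM (a count scaled by the total of its library) in at least 3 samples, which 22 members did.

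The cells were hESC-derived CNCCs at passage 4, made from the H9 line, an established human embryonic stem cell line. All samples carried the same edit, a tag of FKBP12-F36V, mNeonGreen and V5 on both copies of SOX9, in 1 of 2 clones named S9CC13 and S9CC47. The small molecule dTAGV-1 (500 nM) leads tagged SOX9 to degradation, and it was given for 0h (DMSO as vehicle), 3h or 24h, with a labelled relative SOX9 level of 100 at 0h and 0 at both later times. Each time held 3 samples, named S9CC13 R6, S9CC47 R5 and S9CC47 R6. R5 and R6 are differentiation batches, and S9CC13 stands for 1 clone in 1 batch. Samples of the same name were taken as 1 culture. Newly made RNA was marked with 100 uM 4-thiouridine over 2 h, starting 1 h after dTAGV-1 for the 3h group and 22 h after it for the 24h group, and showed as T>C conversions when the 3′ ends were sequenced (SLAM-seq).

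MMPs are zinc proteases that are secreted or held at the cell membrane, and between them they cut collagens, gelatin and other matrix proteins. ADAMTS proteases are secreted and cut proteoglycans such as aggrecan and versican or trim procollagens, and TIMPs bind the active site of MMPs and, in the case of TIMP3, of several ADAMs and ADAMTS proteases. Neural crest cells migrate through matrix and later lay down cartilage and bone matrix of the face, and SOX9 is the transcription factor that drives chondrocyte genes such as COL2A1.

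Libraries held 16955633 to 28782678 total reads, of which 15.9% to 21.3% were T>C reads. The lowest of these shares was in the S9CC13 R6 library at 3h, so results were also computed without it. Of 11 neural crest markers, 11 reached 1 CPM in all 9 libraries, SOX9 among them at 736 to 1862 CPM (the tag acts on the protein, so its RNA level does not check the depletion). The pluripotency genes POU5F1 and NANOG stayed at or under 0.203 CPM, the endothelial and blood lists had 3 of 3 markers each under 1 CPM in all libraries, and LIN28A and DPPA4 were at 34.2 CPM or more in every library. The summed neural crest markers moved with time, from 3947 to 4002 CPM at 0h to 6018 to 6332 CPM at 24h. They did not move alike: SOX9 and MSX1 had means of 764 and 625 CPM at 0h and reached 1862 and 1553 CPM. NR2F1 and NR2F2, with means of 1064 and 479 CPM at 0h, reached no more than 1095 and 502 CPM. The part of these markers in the results was not tested. These are bulk samples, in which fewer cells of a type and less RNA per cell cannot be told apart, and with tagged cells alone an effect of dTAGV-1 itself and the loss of SOX9 cannot be told apart.

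The families differed in how many members had reads at all. T>C reads reached the minimum for 14 of 19 ADAMTS genes, 5 of 22 MMPs and 3 of 4 TIMPs. The MMPs that did so were the gelatinase MMP2, the membrane-type proteases MMP14, MMP15 and MMP16, and MMP11, a stromelysin by name that is activated inside the cell by furin. Total reads added MMP17, a membrane-type MMP with a lipid anchor, and ADAMTS13, the protease of von Willebrand factor, with 194 and 291 total reads over all 9 libraries. MMP11 was just inside the minimum with 5 libraries at 1 CPM of T>C reads, and ADAMTS13 just outside with 2.

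No collagenase (MMP1, MMP8 and MMP13, which cut fibrillar collagen) had a single total read in any library. These lie with the stromelysins MMP3 and MMP10, the matrilysin MMP7, the macrophage elastase MMP12, the enamel protease MMP20 and MMP27 in a cluster of 9 genes at chr11:102520508-102955732 (hg38). The cluster held 0 T>C reads and 2 total reads, both of MMP3, among 198161772 reads of the 9 libraries. A count of 0 allows up to 3 reads, or 0.0151 CPM over all libraries together and 0.104 to 0.177 CPM in a single one, counting error only. MMP26 and TIMP4 were also without a read, and the gelatinase MMP9 had 18 total reads in all. Of the ADAMTS genes that missed the minimum, ADAMTS8 had 39 total reads, ADAMTS17 had 43, and ADAMTS16 and ADAMTS18 had 1 each.

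**Figure D1:**
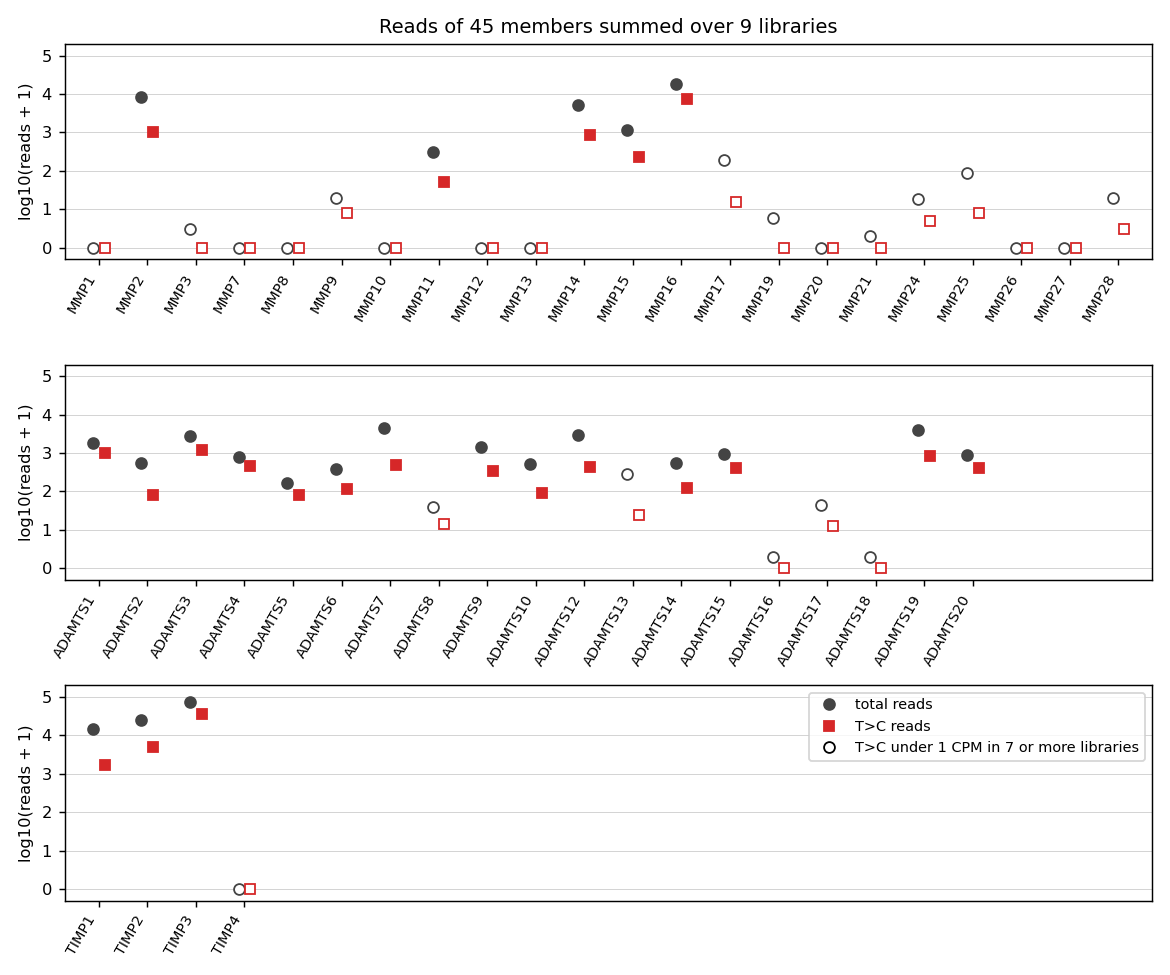
Reads of the 45 members summed over the 9 libraries, as log10(reads + 1), with MMPs in the top panel, ADAMTS genes in the middle and TIMPs at the bottom. Circles are total reads and squares T>C reads, and open symbols mark members under 1 CPM of T>C reads in 7 or more libraries. The collagenases MMP1, MMP8 and MMP13 sit at 0.

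Promoter sequence is shown for MMP10, of this cluster without reads, and for TIMP3, the member with the most reads, since their base composition differs. RefSeq promoters (GRCh38.p14) were matched for 26 of the 45 members, 14 of them among the 22 reported. In the 250 bases before the start, the median GC content was 34.4% in 5 promoters of the chromosome 11 cluster and 72.8% in the 14 of reported members, against 58.0% over 35087 promoters. The TATA box (TATAAA on either strand) stood in 4 of those 5 and in 1 of the 14, and in 10.7% of all promoters. Its matches began 30 (MMP7), 31 (MMP10), 72 (MMP20), 110 (MMP8) and 78 (ADAMTS10) bases before the start. The GC box (GGGCGG on either strand) stood in 0 of the 5 and 13 of the 14, and in 42.6% of all promoters. The cluster does not stand for all members that missed the minimum. Of the 12 matched ones, cluster included, 5 held a GC box, TIMP4 without reads among them, and 6 a TATA box. Their median GC content was 50.8%. The motif AACAAT, the core that SOX factors bind, was found in 2 of the 5, in 0 of the 14 and in 8.98% of all promoters. The motifs were chosen after these promoters had been read, a match is a stretch of letters and no site of binding, and reads here come from 3′ ends. Both stretches are written 5′ to 3′ in the direction of the gene, end at the base before its start, and carry the TATA box or GC boxes in capitals.
MMP10, chr11:102780629-102780878, minus strand: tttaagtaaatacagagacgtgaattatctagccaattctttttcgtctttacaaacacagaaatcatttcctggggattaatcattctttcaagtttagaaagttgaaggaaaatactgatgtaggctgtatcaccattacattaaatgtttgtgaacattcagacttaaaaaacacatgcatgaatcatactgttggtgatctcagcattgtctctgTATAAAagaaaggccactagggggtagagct
TIMP3, chr22:32801455-32801704, plus strand: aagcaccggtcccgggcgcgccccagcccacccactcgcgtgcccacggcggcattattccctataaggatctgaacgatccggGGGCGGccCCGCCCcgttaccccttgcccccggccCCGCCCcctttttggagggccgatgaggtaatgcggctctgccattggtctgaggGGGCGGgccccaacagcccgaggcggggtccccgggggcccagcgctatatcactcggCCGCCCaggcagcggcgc
The MMP10 stretch held 1 TATA box that starts 31 bases before the gene. TIMP3 held 5 GC boxes, starting from 166 to 18 bases before the gene, and no TATA box.

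TIMP3 led the levels of T>C reads. Libraries of this kind give 1 tag near the 3′ end of a transcript, so counts of different genes do not scale with gene length. At 0h, TIMP3 had 712 CPM of T>C reads (scaled by the T>C reads of each library, mean of 3 samples), which ranked it at 145 of 12037 genes tested. MMP16 followed with 191 CPM, TIMP2 with 122 CPM and TIMP1 with 37.6 CPM. MMP2, ADAMTS3, ADAMTS1, MMP14 and ADAMTS19 lay together between 24.3 and 27.0 CPM, an order that their samples do not separate. The lowest of the reported members were ADAMTS2 at 1.22 CPM, ADAMTS5 at 1.10 CPM and MMP11 at 0.448 CPM. TIMP3 alone made up 55.7% ± 2.84 (SD, n = 3) of all member T>C reads at 0h, and MMP16 made up 47.1% ± 0.643 of those of the proteases. In total reads at 0h these parts were smaller, at 37.0% ± 2.54 for TIMP3 and 31.2% ± 0.767 for MMP16. Total reads also put TIMP2 above MMP16, with 25895 and 17905 reads over all libraries.

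**Figure D2:**
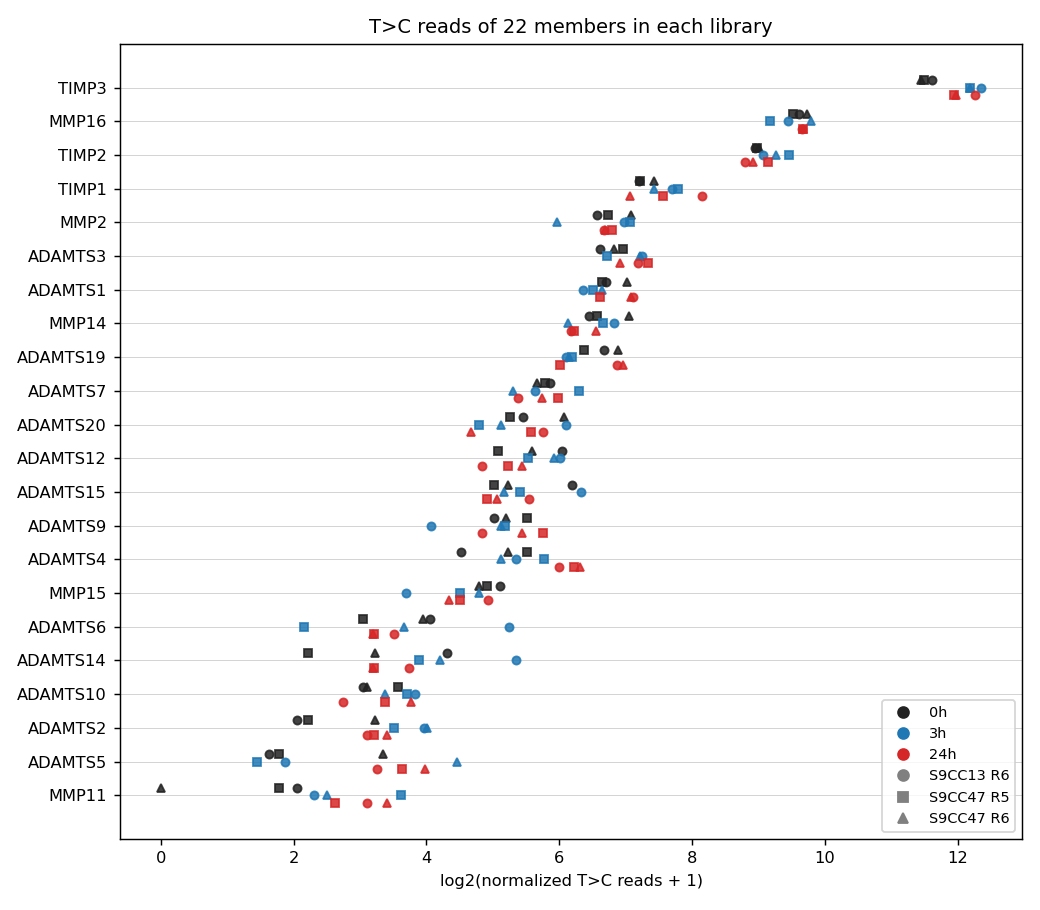
T>C reads of the 22 reported members in each of 9 libraries, as log2(normalized T>C reads + 1), with members ordered by their mean at 0h. Colour gives the time and symbol the culture. The 3 TIMP3 samples at 0h (2787 to 3141 normalized T>C reads) lie below those at 3h and 24h, and the other members mostly overlap between times.

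TIMP3, the inhibitor that is held in the matrix and blocks MMPs as well as ADAM and ADAMTS proteases, rose at 3h and was still raised at 24h. In T>C reads divided by size factors (normalized T>C reads), the 0h samples had 3141 in S9CC13 R6, 2879 in S9CC47 R5 and 2787 in S9CC47 R6. The same cultures had 5251, 4669 and 4672 at 3h. At 24h they had 4932, 3959 and 4043. Every sample after dTAGV-1 was above every 0h sample, while the 3h and 24h samples overlapped. Within a culture, the fold change was between 1.62 and 1.68 at 3h. At 24h it was between 1.37 and 1.57. In the DESeq2 fit over all genes, the log2 fold change at 3h was 0.70 with an SE of 0.09 (adjusted p = 3.73e-13). At 24h it was 0.60 with an SE of 0.09 (adjusted p = 4.53e-09), and between 24h and 3h it was -0.09 (95% interval -0.28 to 0.09). The gene lies at chr22:32801705-32863041 and overlaps SYN3, which is read from the opposite strand and had 1 to 12 total reads in a library, against 4999 to 11230 for TIMP3.

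Total reads of TIMP3 moved the same way. The normalized total reads were 6424, 6418 and 5588 at 0h and then 9247, 9068 and 9159 at 3h. At 24h they were 10848, 8828 and 8870, in the order of cultures above. Again no 0h sample reached a sample of the later times. The log2 fold change of total reads at 3h was 0.57 with an SE of 0.09 (adjusted p = 3.54e-07). That at 24h was 0.65 with an SE of 0.10 (adjusted p = 1.89e-09). Without the S9CC13 R6 culture the change of total reads at 24h was 0.41 with an adjusted p of 0.153, and over all alternatives that p ran from 5.23e-10 to 0.153. At 24h the change of T>C reads without that culture was 0.48, with an adjusted p of 0.0453. Unconverted reads (total minus T>C) also rose, by 0.49 on the log2 scale at 3h (adjusted p = 0.00141) and 0.69 at 24h (adjusted p = 6.57e-08).

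The remaining TIMPs did not pass the test at either time. TIMP1, a soluble MMP inhibitor, had 146, 148 and 171 normalized T>C reads in the 0h samples. It had 206, 220 and 171.5 at 3h, then 284, 189 and 133 at 24h. Its cultures parted at 24h, where S9CC13 R6 was at 1.95 times its 0h value and S9CC47 R6 at 0.778 times. The log2 change at 24h was 0.49 (95% interval 0.04 to 0.95, adjusted p = 0.307), and it passed with edgeR alone among the alternatives (adjusted p = 0.0978, with a range of 0.0978 to 1 over them). In total reads the TIMP1 change at 24h was 0.01 (95% interval -0.22 to 0.25). TIMP1 overlaps SYN1 on the opposite strand, which had at most 16 total reads in a library.

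TIMP2, which blocks MMPs and also helps MMP14 to activate MMP2, had 491, 503 and 515 normalized T>C reads before dTAGV-1. After 3h it had 538, 704 and 616. All 3h samples were above the 0h samples, yet the log2 change of 0.31 (95% interval 0.07 to 0.54) had an adjusted p of 0.352. At 24h the samples had 445, 564 and 481, on both sides of the 0h values, and the log2 change was -0.06 (95% interval -0.31 to 0.19). TIMP4 had no read.

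With TIMP3 the balance of reads between inhibitors and proteases shifted. Summed over members, there were 2.16 ± 0.227 (SD, n = 3) TIMP T>C reads per MMP or ADAMTS T>C read at 0h, 3.55 ± 0.331 at 3h and 2.91 ± 0.327 at 24h. Every later sample, at 2.67 or more, was above every 0h sample. These sums are of reads, of which TIMP3 held 66.7% ± 1.54 at 3h and 63.9% ± 2.59 at 24h, and they say nothing of protein.

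Across the members as a whole few calls were made. At 3h, 1 of the 22 tested for T>C reads was called at an adjusted p under 0.1, TIMP3, in a comparison that called 1.79% of all genes tested. At 24h, 2 of 22 were called, TIMP3 and ADAMTS4, against 4.98% of all genes. Between 24h and 3h, DESeq2 called 0 of 22 (1 at an unadjusted p under 0.05, and 0 by edgeR), against 1.14% of all genes. The median log2 change of the 22 was 0.09 at 3h and 0.04 at 24h, beside -0.01 and 0.00 over all genes. In total reads, 1 of 24 was called at 3h (1.89% of all genes), 3 of 24 at 24h (15.0%) and 1 of 24 between 24h and 3h (5.39%). Unconverted reads gave 1 of 23 at 3h (1.10% of all genes) and 2 of 23 at 24h (12.1%). Shares this near those of all genes, from counts of 3 or fewer, are no result about the family.

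**Figure D3:**
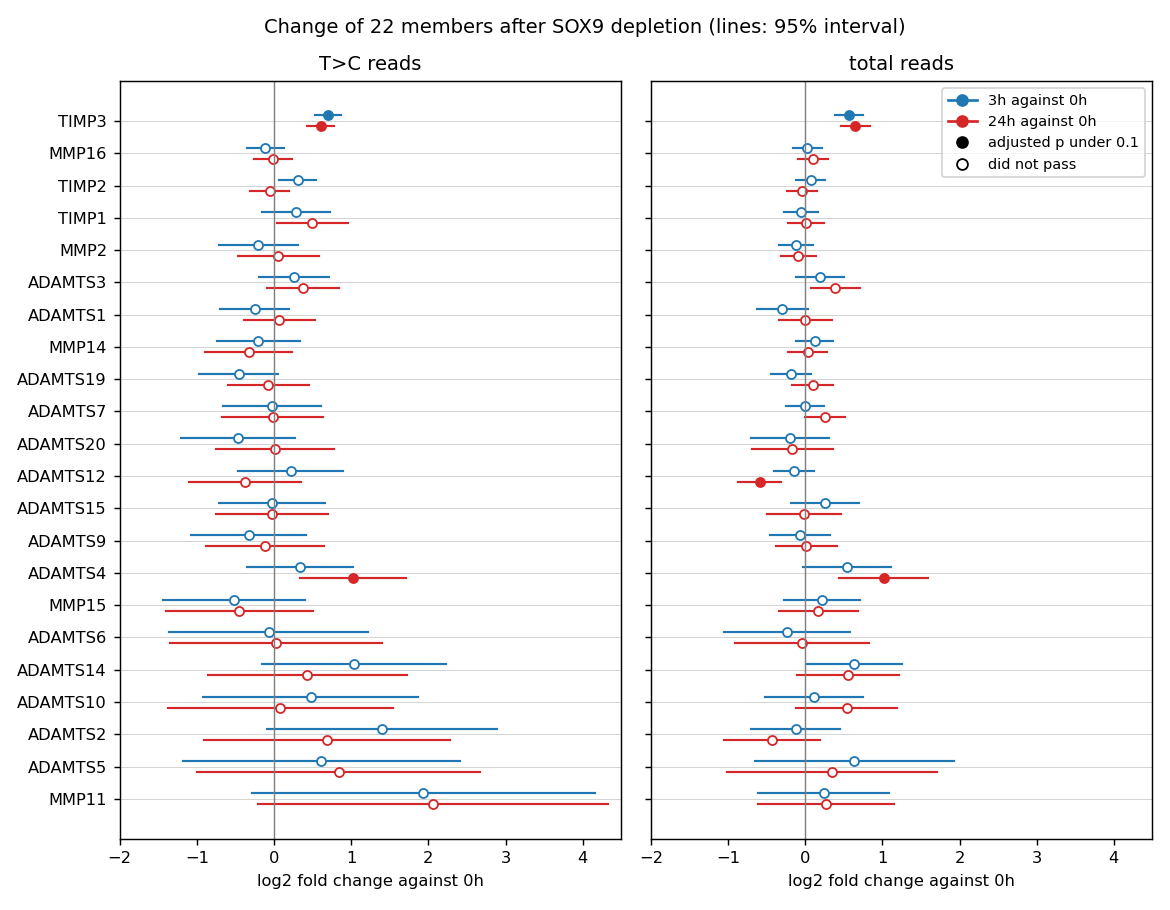
Log2 fold change of the 22 reported members against 0h for T>C reads (left) and total reads (right), at 3h in blue and 24h in red, ordered as by level. Lines are 95% intervals and filled points passed an adjusted p under 0.1. TIMP3 passed at both times, ADAMTS4 at 24h in both read types and ADAMTS12 at 24h in total reads.

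Of the proteoglycan-cleaving ADAMTS genes, ADAMTS4 rose at 24h. It encodes aggrecanase-1, which cuts aggrecan and versican, and lies at chr1:161184302-161199054 on the minus strand. Its normalized T>C reads were 21.9, 44.7 and 36.6 at 0h, 39.7, 53.7 and 33.8 at 3h, and 62.6, 73.7 and 78.5 at 24h. The 24h samples lay above all others, and those at 3h overlapped the 0h samples. The log2 change was 1.02 (SE 0.35, adjusted p = 0.0813) at 24h and 0.34 (95% interval -0.35 to 1.02) at 3h.

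In total reads ADAMTS4 had 31.3, 66.8 and 67.4 at 0h, 63.2, 101 and 71.9 at 3h, and 109, 125 and 119 at 24h. The 24h samples were again apart from the rest, with a log2 change of 1.02 (SE 0.30, adjusted p = 0.00974). The fold within a culture was 3.49 in S9CC13 R6, 1.88 in S9CC47 R5 and 1.77 in S9CC47 R6. Counts were low, at 21 to 106 T>C reads in a library, and the call for T>C reads was lost in 7 of 12 alternatives, among them each culture left out (adjusted p from 0.026 to 1 over the alternatives, with a log2 change of 0.93 to 1.22). The call for total reads was lost without any 1 of the 3 cultures and without the S9CC13 R6 library at 3h (adjusted p from 0.00292 to 1). Calls over all genes at 24h also went down, from 1751 to 788 or fewer without a culture and 574 without that library.

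The remaining proteoglycan-cleaving members were not called at any time in T>C or total reads. ADAMTS1, which cuts versican and aggrecan, ranged from 80.7 to 137 normalized T>C reads over the 9 samples, with a log2 change of -0.25 (95% interval -0.70 to 0.20) at 3h and 0.07 (-0.39 to 0.53) at 24h. ADAMTS5, aggrecanase-2, had only 1.73 to 21.0 normalized T>C reads, too few to bound a change within 2-fold (95% interval -1.19 to 2.41 at 3h). It reached 1 CPM in 5 libraries, those of 24h and S9CC47 R6 at 0h and 3h, so that it passed the minimum mainly through 24h. ADAMTS9 and ADAMTS20, versican-cutting relatives of each other, had 15.9 to 53.0 and 24.4 to 67.5 normalized T>C reads, and their log2 changes at 24h were -0.12 and 0.01.

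ADAMTS15, another protease of this group, and ADAMTS9 set the clones apart more than the times. The S9CC13 samples had 45.5 to 79.4 normalized T>C reads of ADAMTS15 and the S9CC47 samples 29.1 to 41.6, with no overlap across the 3 times. For ADAMTS9 the order was turned, with 15.9 to 31.3 normalized T>C reads in S9CC13 and 33.8 to 53.0 in S9CC47. With 1 culture of S9CC13, a clone and a single culture cannot be told apart, and these 2 of 22 members were picked out for not overlapping, as 3.07% of all genes tested did not. The log2 change of ADAMTS15 with time was -0.03 at 3h and -0.03 at 24h.

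ADAMTS12, which cuts cartilage oligomeric matrix protein (COMP), fell in total reads at 24h. It lies at chr5:33523535-33892019 on the minus strand. Its normalized total reads were 419, 367 and 380 at 0h, 401, 357 and 330 at 3h, and 255, 254 and 225 at 24h. The 24h samples were below all others in each culture, at 0.609, 0.691 and 0.593 times their 0h values. The log2 change was -0.59 (SE 0.14, adjusted p = 0.000852) at 24h against 0h and -0.45 (SE 0.15, adjusted p = 0.0708) at 24h against 3h, while at 3h it was -0.14 (95% interval -0.40 to 0.12). Unconverted reads fell as well, by 0.61 on the log2 scale at 24h (adjusted p = 0.00158).

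The T>C reads of ADAMTS12 did not pass at 24h. They were 64.6, 32.6 and 47.2 at 0h, 63.5, 45.0 and 59.5 at 3h, and 27.5, 36.3 and 42.2 at 24h. The times overlapped, with S9CC47 R5 lowest of the 0h samples, and the log2 change at 24h was -0.38 (95% interval -1.10 to 0.35, adjusted p = 0.764), an interval that holds the change of the total reads. The call for total reads at 24h was lost when any 1 culture was left out (adjusted p from 0.000361 to 1 over the alternatives). That at 24h against 3h was lost in the same way, and also without the S9CC13 R6 library at 3h and with the replicate block and a surrogate variable (adjusted p = 0.448, with a range of 0.00845 to 1). At 24h against 0h, all genes together had 788 calls or fewer with a culture left out, beside 1751 in the main fit. The RefSeq stretch before ADAMTS12, shown because it is the only member called as lower, held 1 GC box, in capitals.
ADAMTS12, chr5:33892020-33892240, minus strand: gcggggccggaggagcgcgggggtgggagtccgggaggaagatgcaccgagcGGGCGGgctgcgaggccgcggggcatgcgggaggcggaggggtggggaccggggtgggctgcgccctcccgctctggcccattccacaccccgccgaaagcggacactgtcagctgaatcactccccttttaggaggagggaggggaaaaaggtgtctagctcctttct
It had no TATA box and no AACAAT in the window of 250 bases. ADAMTS7, the other COMP-cutting protease, had 38.5 to 78.0 normalized T>C reads over all samples, with log2 changes of -0.03 at 3h and -0.01 at 24h.

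**Figure D4:**
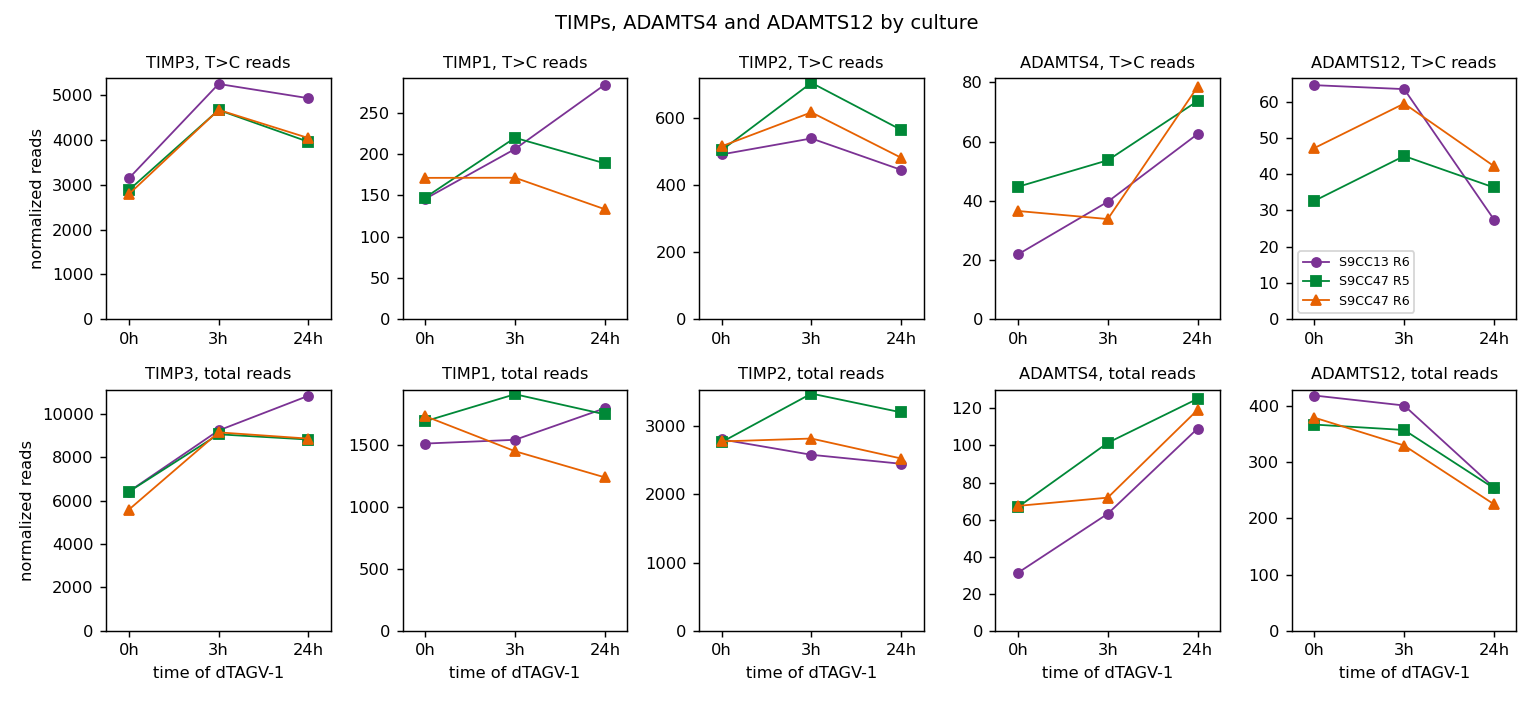
Normalized T>C reads (top) and total reads (bottom) of TIMP3, TIMP1, TIMP2, ADAMTS4 and ADAMTS12 at 0h, 3h and 24h of dTAGV-1, with 1 line for each culture and each axis starting at 0. TIMP3 was higher at 3h and 24h in all 3 cultures, ADAMTS4 was highest at 24h, and total reads of ADAMTS12 were lowest at 24h.

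Among the procollagen N-propeptidases, none was called. ADAMTS3, which also acts on the lymphatic growth factor VEGF-C, had 96.9 to 160 normalized T>C reads and a log2 change of 0.37 (95% interval -0.10 to 0.84) at 24h. In total reads its 24h samples (310 to 363) lay above its 0h samples (244 to 299), with a log2 change of 0.39 and an adjusted p of 0.105, and edgeR put it under the threshold (adjusted p = 0.0771, with a range of 0.0771 to 1 over the alternatives). ADAMTS2, the main enzyme that trims procollagen I, and its relative ADAMTS14 had 3.13 to 15.2 and 3.63 to 39.7 normalized T>C reads. Their log2 changes at 3h were 1.40 (95% interval -0.10 to 2.89) and 1.04 (95% interval -0.15 to 2.23), wide ranges that hold 0. ADAMTS2 reached 1 CPM of T>C reads in 7 libraries, all but S9CC13 R6 and S9CC47 R5 at 0h, so that it passed the minimum through the later times.

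ADAMTS6, ADAMTS10 and ADAMTS19 were not called either. ADAMTS10 takes part in fibrillin microfibrils, and ADAMTS6 is its closest relative. They had 5.69 to 13.2 and 3.46 to 37.0 normalized T>C reads, and the highest ADAMTS6 value was in the S9CC13 R6 library at 3h. ADAMTS19, an orphan protease, had 63.3 to 124 and a log2 change of -0.46 (95% interval -0.97 to 0.05) at 3h and -0.08 at 24h.

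No MMP was called by the DESeq2 fit in T>C or total reads. MMP17 passed in total reads under some alternatives, which is no support for a change, as given below. MMP16, a membrane-type protease and the most read of the proteases, was also the most closely measured: its log2 change in T>C reads was -0.11 (95% interval -0.35 to 0.12) at 3h and -0.01 (95% interval -0.26 to 0.23) at 24h. MMP14, which cuts collagen at the cell surface and activates MMP2, changed by -0.20 (95% interval -0.74 to 0.33) and -0.33 (95% interval -0.89 to 0.23). MMP2, the gelatinase, changed by -0.21 (95% interval -0.72 to 0.30) and 0.05 (95% interval -0.47 to 0.58). For these 3 genes the intervals hold no 2-fold change in either direction.

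MMP15 and MMP11 were measured less well. MMP15, a membrane-type protease, had 11.9 to 33.3 normalized T>C reads and a log2 change of -0.45 (95% interval -1.40 to 0.50) at 24h. MMP11 had 3.13, 2.42 and 0 normalized T>C reads at 0h and 7.59, 5.19 and 9.63 at 24h. Its 5 libraries at 1 CPM were all of the later times, so that the minimum itself chose it for being higher there. The interval of its log2 change at 24h, -0.20 to 4.33, holds 0, and its total reads changed by 0.27 (95% interval -0.61 to 1.15).

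MMP17, measured in total reads only, had 27.3, 14.1 and 28.7 normalized reads at 0h and 11.6, 5.59 and 6.58 at 24h. Its 4 libraries at 1 CPM were all at 0h or 3h, so that the minimum itself chose it for being lower at 24h, and its values are given as a description. The fitted log2 change at 24h was -1.25 against 0h, and it was not called. With the culture as a replicate block, and no other covariate, it was -1.61 against 0h and -2.03 against 3h. It passed against 0h with edgeR, with all genes of at least 1 count, with no surrogate variable and with the block alone. It did not with the block and a surrogate variable or with any culture left out. Since the minimum chose MMP17 through its higher times, and it was named after its values were seen, no outcome here supports a fall. In T>C reads at 24h, 12 of the 20 members not called had a 95% interval inside 2-fold either way, and 8 did not.

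The share of a gene's reads that carried a conversion, a measure of how much of its RNA was made during the 2 h of label, spread widely over the members. At 0h it ran from 5.29% for MMP11 to 64.7% for ADAMTS4, around a median of 23.7% for the 22 members. The MMP11 value rests on few T>C reads and spans 0% to 10.0% over its samples. Its mean was 18.4% at 3h and 22.5% at 24h. Over 12037 genes tested, the median at 0h was 27.8% and the quartiles were 17.1% and 41.8%. ADAMTS4 (64.7% ± 8.42, SD, n = 3) was above 96.6% of these genes. ADAMTS1 (53.3% ± 5.35) and TIMP3 (48.6% ± 1.87) were above 88.6% and 83.5% of them. The share also depends on the number of T bases in the counted stretch, which was not tested.

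Members of 1 group differed in this share. TIMP2 at 18.4% ± 1.26 and TIMP1 at 9.54% ± 0.437 were below the median of all genes while TIMP3 was above it. MMP16 at 42.4% ± 2.50 stood above MMP14 at 18.9% ± 3.14 and MMP2 at 9.93% to 13.2%. ADAMTS12 had 12.3% ± 2.76 and ADAMTS7 11.7% ± 1.69, so that both COMP-cutting members lay low. These are descriptions of levels at 0h, with no test between genes.

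TIMP3 kept its share while its reads rose, at 49.5% ± 1.97 at 3h and 48.4% ± 2.14 at 24h. ADAMTS4 was at 50.3% ± 2.58 at 3h and 65.0% ± 7.47 at 24h. The median over all genes was 25.6% at 3h and 29.2% at 24h, and the S9CC13 R6 library with the lowest share of all enters the 3h values.

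**Figure D5:**
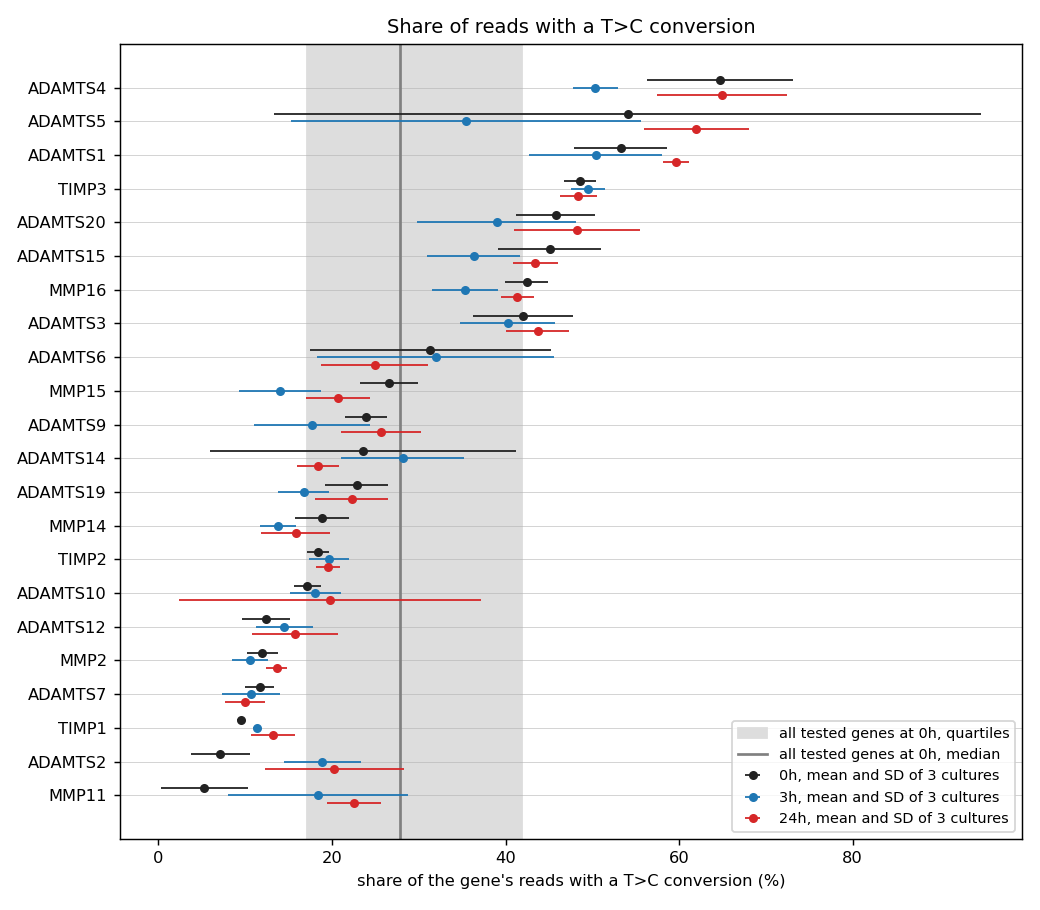
Share of each reported member's reads with a T>C conversion, in percent, as the mean of 3 cultures with its SD at 0h, 3h and 24h, ordered by the 0h mean. The grey band spans the quartiles (17.1% to 41.8%) and the line marks the median (27.8%) of 12037 tested genes at 0h. ADAMTS4 lies at the top, TIMP3 far above TIMP2 and TIMP1.

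Other genes of the matrix protease system were taken from a list of substrates, convertases, other inhibitors and other proteases. In T>C reads 0 of 41 tested were called at 3h (216 of all 12037 genes were), and 5 of 41 at 24h, 3 up and 2 down, beside 4.98% of all genes. The versican gene VCAN, whose product several ADAMTS members cut, rose by 0.30 (adjusted p = 0.00425) at 24h. The collagen I genes COL1A1 and COL1A2, whose products pass through the N-propeptidases, rose by 1.11 (adjusted p = 0.0378) and 0.52 (adjusted p = 0.000652). COL2A1, the cartilage collagen gene and a known SOX9 target, fell by 1.10 (adjusted p = 8.73e-14), and FAP, a surface protease of fibroblasts, fell by 0.61 (adjusted p = 0.0834). Of these 5, COL2A1 alone was called without each culture in turn. In total reads 15 of 39 were called at 24h, 11 up and 4 down, beside 15.0% of all genes.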

How the data were processed

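The study sequenced 3′ ends of RNA from 9 samples (QuantSeq, a stranded kit). The authors trimmed the reads, mapped and counted them with slamdunk, merged them per gene, and deposited raw counts of all reads and of reads with a T>C conversion. The build in the submitters' processing notes is hg38, and whether counting used strand is not given in the sources used here. No molecular identifiers were stated, so limits cover counting error only.

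Raw counts of all 9 samples entered 1 DESeq2 fit for each table (version 1.42.0 in R 4.3.3). Its terms were time, batch of differentiation and 1 surrogate variable from sva 3.50.0. Protein-coding genes that reached 1 CPM in 3 samples were tested, 12037 for T>C and 11710 for total reads, and calls were made at an adjusted p under 0.1 (Benjamini-Hochberg, over all of them), with independent filtering off. The fit was also run on simulated data, with changes larger than those of TIMP3 and ADAMTS12 in better-read genes. That run does not cover smaller changes or low counts. Normalized reads are counts divided by size factors, and 95% intervals are those of the Wald test. Alternatives were edgeR 4.0.16, other size factors, filters, covariates and thresholds, and each culture left out on the same genes. Python 3.11.15 with pandas 2.3.3 made the summaries.

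Groups came from the treatment time labelled for each sample, and count columns were matched to samples by their titles. Samples with the same clone and differentiation name were taken as the same culture, which pairs samples across times. The titles give these names and do not state a shared culture. Same-culture samples deviated together in T>C reads with a mean correlation of 0.13 over 9 pairs (0.02 to 0.29), and in total reads with a mean of 0.27 (-0.06 to 0.61). Cultures are 2 clones in 2 batches of differentiation. The main fit has no term for culture, and its p-values rest on the spread left after time, batch and the surrogate variable. Members, gene lists and roles were chosen with earlier results of these data known. Every member past the T>C minimum is named, with values per sample for the TIMPs and for members called. Genes of the wider protease system are named where called in T>C reads, and MMP17 and MMP10 were chosen after their values were seen. Coordinates are from GENCODE 44 and promoters from RefSeq.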

Additional observations from a re-analysis of the deposited data

Results flagged for a closer look

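ADAMTS12 was singled out because its effects at 3h and 24h differed by the test of 24h against 3h in total reads. The log2 difference was -0.449 with a DESeq2 adjusted p of 0.0708, and all 3 cultures were lower at 24h than at 3h. The call was lost with the replicate block and a surrogate variable (adjusted p = 0.448) and with each culture left out, and the p ranged from 0.00845 to 1 over the alternatives. In T>C reads the same difference was -0.59 (95% interval -1.37 to 0.19, adjusted p = 0.789). Among genes of the wider system, COL1A2 differed between the times by 0.507 in T>C reads and 0.504 in total reads. COL2A1 differed by -0.751 in T>C reads and by -0.755 in total reads. No explanation was tested for these differences.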

How the results depend on the processing

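Under each alternative run, 1 member was called at 3h in T>C reads and in total reads, and 0 members between 24h and 3h in T>C reads. Calls over all genes then ran from 55 to 288, from 66 to 222 and from 23 to 530, in that order. None of the 297 log2 changes of single genes under the alternatives turned direction. They cover only genes called in the main fit or under an alternative. The setting at an adjusted p under 0.05 reuses the main fit, so it could turn no direction. At 24h, T>C reads gave 2 members, 3 with edgeR, where TIMP1 joined, and 1 with all genes of at least 1 count, with the replicate block and a surrogate variable, at an adjusted p under 0.05, and without the S9CC13 R6 library at 3h (an alternative chosen after seeing the data). Leaving out 1 culture gave 1 each time, while calls over all 12037 genes went from 599 to 64, 259 and 93. Total reads at 24h gave 3 members and 5 with edgeR. They gave 4 with all genes of at least 1 count, with no surrogate variable and with the replicate block alone. Without the S9CC13 R6 library at 3h they gave 2, and with a culture left out 0 to 1. Calls over all 11710 genes went from 1751 to 574 without that library, and to 163, 788 and 328 without a culture. Total reads at 24h against 3h gave 1 member. They gave 2 with edgeR, with all genes, with no surrogate variable and with the replicate block alone, where MMP17 joined ADAMTS12. They gave 0 with the block and a surrogate variable, without that library, at an adjusted p under 0.05, and with each culture left out. Calls over all genes there went from 631 to 92, 169 and 884 with a culture left out. The minimum had chosen MMP17 for being lower at 24h, so its calls, here and against 0h, are no support for a fall. The block alone changed no call of members other than that of MMP17. With a culture left out, 6 samples remain for 3 times. The cause of the other changes was not tested. Low counts limit ADAMTS2, ADAMTS5, ADAMTS6, ADAMTS10, ADAMTS14, MMP11 and MMP15, whose T>C intervals at 24h held a 2-fold change. The ADAMTS12 interval held one too, at a mean of 46.5 normalized T>C reads. That of ADAMTS9, at a mean of 35.5, did not.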
